A study of Mus musculus with 8 samples.

Results

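Cytosolic DNA and RNA sensing was followed through 10 genes chosen by name: the sensors Mb21d1, Ddx58, Ifih1 and Zbp1, the adaptors Tmem173 and Mavs, the kinases Tbk1 and Ikbke, the transcription factor Irf3 and the nuclease Trex1. All 10 were found among the 39175 genes of each of the 2 deposited tables, and all 10 had a completed test in both. The cells were embryonic fibroblasts from C57BL/6J mice, and every group lacked p53. In the groups called p53KO the genotype was p53-/-, and in those called p53CryKO it was p53-/-Cry1-/-Cry2-/-, so that both cryptochromes, the repressors of the circadian clock, were missing as well. Cells were either untreated or exposed to 40 J/m2 of germicidal light of mainly 254 nm and collected 16 h afterwards, with 2 biological replicates in each of the 4 groups and 8 samples in all. No group had intact p53, and the labels do not say whether a genotype was 1 cell line or came from several animals.

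The pathway detects DNA that lies in the cytosol and RNA whose form marks it as viral or misplaced. Mb21d1 encodes cGAS, which binds double-stranded DNA in the cytosol and makes the messenger cGAMP; cGAMP binds STING, the product of Tmem173. Ddx58 and Ifih1 encode RIG-I and MDA5, helicases that bind viral or misplaced double-stranded RNA and signal through MAVS on the outer mitochondrial membrane. Both arms recruit the kinase TBK1, with its relative IKK-epsilon from Ikbke, and these phosphorylate IRF3, which enters the nucleus and switches on type I interferon. ZBP1 binds nucleic acid in the left-handed Z form and can trigger necroptosis, and TREX1 degrades cytosolic DNA and so keeps cGAS quiet.

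For each gene and group the authors deposited 1 FPKM pooled over replicates (fragments per kilobase of transcript, relative to library size) and a Cuffdiff test of UV against untreated cells in each genotype. Replicate values and their SD can therefore not be shown, and each level below is the authors' pooled FPKM. A gene is said to have risen or fallen where the authors' deposited table gives a q of at most 0.05. Standard errors (SE) are those implied by the authors' test statistic, and intervals are the log2 fold change ± 1.96 SE. In RNA pooled over a culture, fewer expressing cells and less RNA per cell cannot be told apart.

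The library totals are unknown. The low values of transcripts of a single annotated isoform fell into steps that may each be 1 fragment, of 0.00893 and 0.0187 FPKM times kilobases in p53KO cells before and after UV and of 0.00856 and 0.0163 in p53CryKO cells. Between 68.5% and 91.7% of such values lay within 0.15 of a whole number of steps. The 10 fibroblast markers summed to 2522 to 5079 FPKM over the 4 groups, with Vim a large part of it. Lum stood at 0 to 0.0502 and Fap at 0.0568 to 0.217. The 8 leukocyte markers found summed to 6.46 FPKM before and 14.2 after UV in p53KO cells and to 7.31 and 13.6 in p53CryKO cells. Of these Cd68 rose, from 2.41 to 12.5 and from 2.82 to 11.3 FPKM, and Cd14 fell, from 3.40 to 0.951 and from 3.98 to 1.48, with Ptprc at most at 0.00479 and Cd3e at 0 in every group. Whether they bear on the UV results was not tested. Transcripts of the targeted genes were counted in all groups, Trp53 at 78.8 to 106 FPKM. Cry1 stood at 3.85 and 4.55 FPKM in p53KO cells before and after UV and at 3.34 and 3.79 in p53CryKO cells. Cry2 stood at 2.44 and 0.488 FPKM in p53KO and, higher, at 4.54 and 1.10 in p53CryKO cells, which are labelled as lacking it. A value over the whole gene does not show a deleted part, so the genotypes rest on the labels.

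After UV, 3 of the 4 sensors rose, while the sensor Mb21d1, the adaptor Mavs, the kinase Tbk1 and Irf3 fell. In p53KO cells 3 of the 10 rose, 5 fell and 2 did not pass the test, where 23.9% of 15857 tested genes rose, 26.9% fell and 50.9% were called in all. In p53CryKO cells 3 rose, 4 fell and 3 did not pass, where 25.1% of 15872 tested genes rose, 27.2% fell and 52.3% were called in all. The genes that rose were Ddx58, Ifih1 and Zbp1 in both genotypes, and those that fell in both were Mb21d1, Mavs, Tbk1 and Irf3. Over all genes tested in both tables, 20.8% rose in both and 24.1% fell in both, so the counts themselves do not set the 10 genes apart. Their median log2 fold change was -0.42 in p53KO and -0.21 in p53CryKO cells, beside 0.05 and 0.05 over all tested genes with an FPKM of 1 or more.

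Directions are relative to the authors' scaling, which kept the median gene near 0. Protein-coding genes summed to 506244 FPKM in p53KO cells before UV and 1018110 after it, and to 529446 and 1074360 in p53CryKO cells. Scaling the groups to equal total fragments lowers every log2 fold change by 0.78 in p53KO and 0.79 in p53CryKO cells, and scaling to equal coding FPKM lowers it by 1.01 and 1.02. The authors' p-values cannot be shifted, so calls on these scales use the implied SE, a normal distribution and Benjamini-Hochberg adjustment, and the test changes along with the scale. That test alone, on the authors' scale, called 1 of the 10 genes higher and 3 lower in p53KO cells, where 17.3% and 20.6% of 15527 genes were called. In p53CryKO cells it called 3 higher and 3 lower, beside 18.3% and 21.5% of 15518 genes. At equal total fragments p53KO cells had 0 members called higher and 6 called lower (5.75% and 37.1% of all genes), and p53CryKO cells had 1 and 6 (5.51% and 39.4%). At equal coding FPKM the counts were 0 and 7 in p53KO cells (3.68% and 42.6%) and 1 and 7 in p53CryKO cells (3.36% and 46%). Zbp1 was the member still called higher in p53CryKO cells, while by this test the falls of Mb21d1, Tbk1 and Irf3 were called on all 3 scales. Mavs was called lower at equal total fragments and equal coding FPKM. On the authors' scale this test did not call it (adjusted p = 0.169 in p53KO and 0.134 in p53CryKO cells). The order of the genes does not move with the scale.

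**Figure D1:**
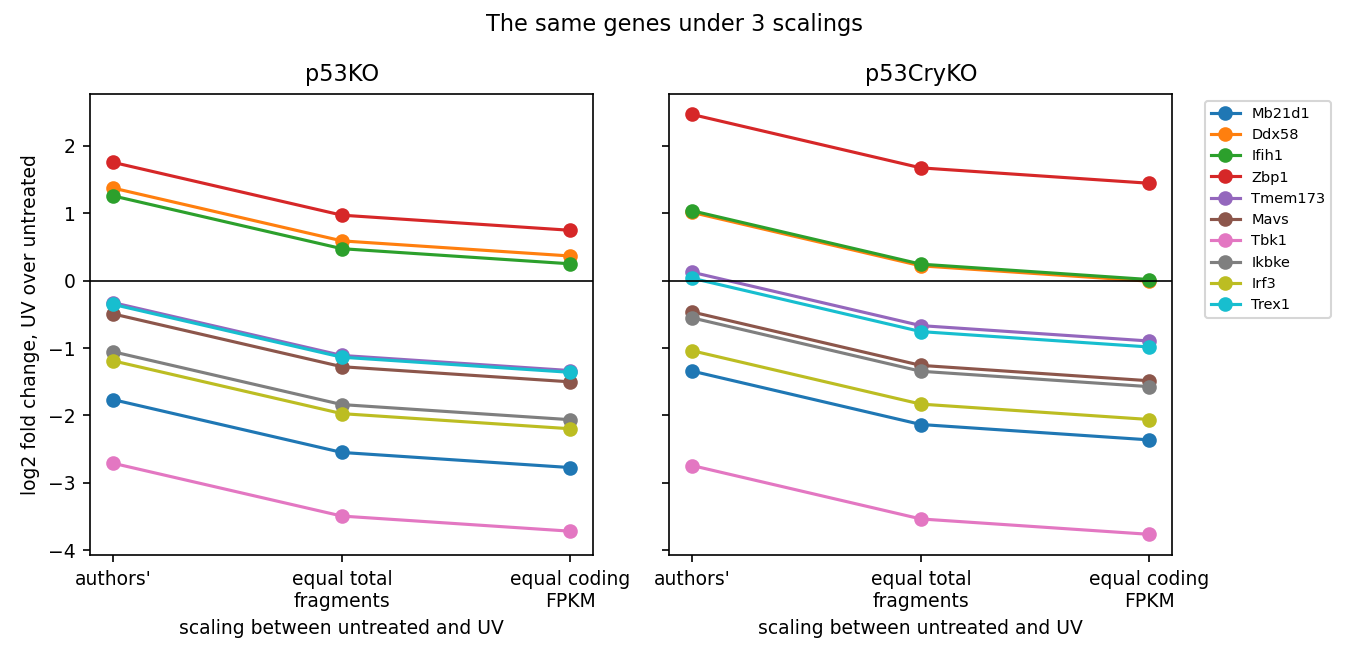
Log2 fold change of UV over untreated cells (y axis) for each of the 10 genes in p53KO (left) and p53CryKO cells (right) under the authors' scaling and after scaling to equal total fragments or equal coding FPKM (x axis); each line is 1 gene. The lines run in parallel; Zbp1, Ddx58 and Ifih1 lie on top throughout, and in p53CryKO cells Ddx58 ends at -0.01 and Ifih1 at 0.02.

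**Figure D2:**
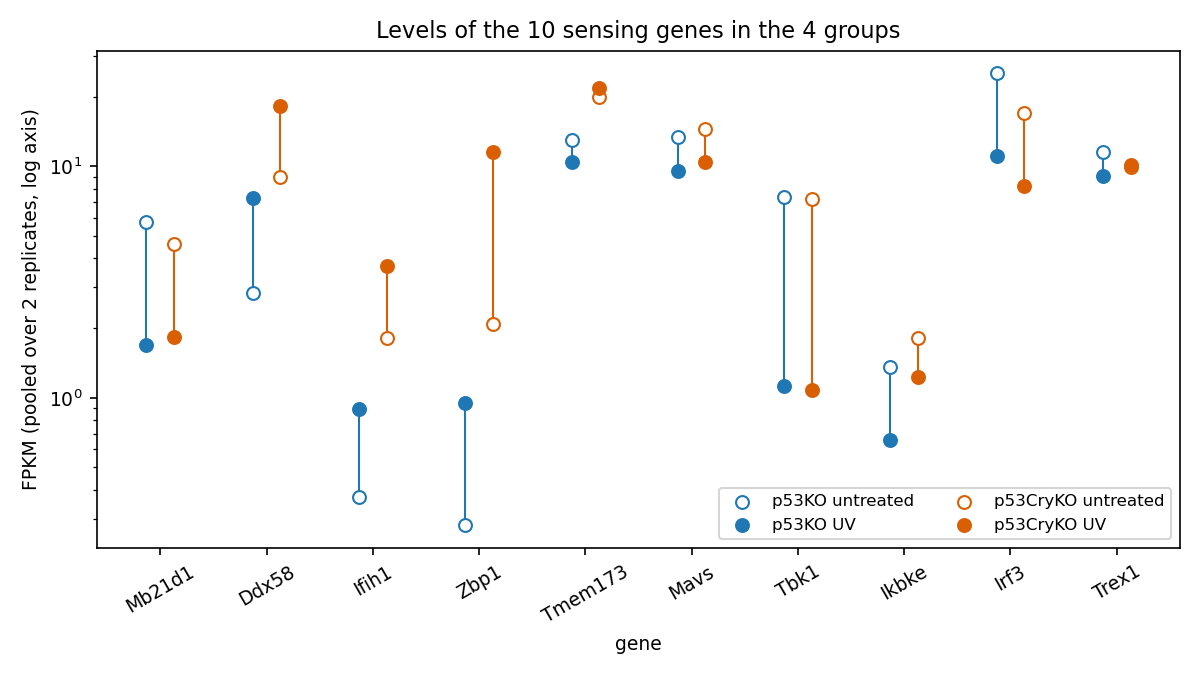
Pooled FPKM on a log axis (y) of the 10 genes (x) in the 4 groups; open circles are untreated and filled circles UV-treated cells, joined by a line within each genotype, and no error bars can be drawn because 1 pooled value per group was deposited. Tbk1 drops from 7.39 and 7.24 to 1.13 and 1.08 FPKM, and Zbp1 spans from 0.282 in untreated p53KO to 11.5 in UV-treated p53CryKO cells.

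The RNA helicase sensors rose. Ddx58 (ENSMUSG00000040296, chromosome 4, 40203773 to 40239828 of GRCm38, minus strand) encodes RIG-I, which recognises short RNA with a 5′ triphosphate. It went from 2.83 to 7.34 FPKM in p53KO cells (log2 fold change 1.37, SE 0.34, q = 0.000169 in the authors' deposited table) and from 9.04 to 18.2 in p53CryKO cells (1.01, SE 0.27, q = 0.000161). The untreated p53CryKO level was above the UV-treated p53KO level. Ifih1 (ENSMUSG00000026896, chromosome 2, 62595798 to 62646255, minus strand) encodes MDA5, the sensor of long double-stranded RNA. It went from 0.372 to 0.891 FPKM in p53KO cells (1.26, SE 0.56, q = 0.00131 in the authors' deposited table) and from 1.81 to 3.71 in p53CryKO cells (1.04, SE 0.30, q = 0.000161). With the implied SE and a normal distribution the rise of Ifih1 in p53KO cells missed the threshold. On both other scalings the rises of both helicases missed the threshold, and on the coding scale Ddx58 turned to -0.01 in p53CryKO cells. Per length, Ddx58 stood at 7.60 and 8.24 times the Ifih1 level in p53KO cells before and after UV, and at 5.01 and 4.92 times in p53CryKO cells. The related Dhx58, which encodes LGP2 and modulates both helicases, had a similar log2 fold change of 1.14 and 1.32 but SEs of 2.13 and 1.71, and did not pass.

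The starts of Ddx58 and Ifih1 share a motif, shown here because these are the helicases that rose together. In the RefSeq promoter windows of GRCm38.p6 (250 bases before to 50 after a gene's start) the letters GAAA, any 2 bases and GAAA again, a core that interferon regulatory factors bind, were searched on both strands. Of the 10 genes 8 had a window, under the symbol Cgas for Mb21d1, and 2 of the 8 held the motif, against 3.44% of all 32851 windows. The stretches follow the gene's strand and capitals mark the match.
Ddx58, chr4:40239804-40239833, motif read on the opposite strand: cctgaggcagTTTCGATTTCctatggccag
Ifih1, chr2:62646206-62646235: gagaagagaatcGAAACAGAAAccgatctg
Both matches lay within 50 bases downstream of the annotated start. The letters GGG, any 2 bases and TTTCC, of the kind NF-kB binds, were in 0 of the 8 windows and in 1.63% of all. The E-box CACGTG, which the clock factors CLOCK and BMAL1 bind and through which cryptochromes act, was in 1 of the 8, that of Tbk1, and in 7.15% of all.
Tbk1, chr10:121586772-121586801: cccgcactcggtCACGTGctccgtggcccg
A match describes the letters and is not a measured binding site. Zbp1 and Tmem173 are named only.

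Zbp1 had the largest rise of the 10 genes. Zbp1 (ENSMUSG00000027514, chromosome 2, 173206612 to 173218923, minus strand) encodes an interferon-inducible sensor that engages RIPK3 through a shared interaction motif. It went from 0.282 to 0.952 FPKM in p53KO cells (log2 fold change 1.76, SE 0.80, q = 0.0158 in the authors' deposited table) and from 2.08 to 11.5 in p53CryKO cells (2.47, SE 0.37, q = 0.000161). Its fold change exceeded that of 91.2% of tested genes with an FPKM of 1 or more in p53KO cells and 97.7% in p53CryKO cells. The p53KO levels are low, about 105 and 170 steps of the kind described above if all annotated exons are counted, and the rise there missed the threshold with the implied SE and a normal distribution. On the coding scale the rise remained called in p53CryKO cells (1.45) and was 0.75, not called, in p53KO cells.

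The partners of ZBP1 in cell death moved in part with it. In the necroptosis list of 6 genes, 4 rose, Zbp1 itself among them, and 1 fell in p53KO cells, and the same counts held in p53CryKO cells. Over all tested genes 23.9% and 25.1% rose and 26.9% and 27.2% fell. The medians, Zbp1 included, were 0.57 and 0.61. With the implied SE, however, 1 and 3 were called higher, and on the coding scale 0 and 1. Ripk1 did not pass in either genotype (log2 fold change -0.15, SE 0.91, and -0.48, SE 0.96). Mlkl, the pseudokinase that permeabilises the membrane, went from 12.2 to 27.7 and from 17.1 to 34.6 FPKM. Casp8, the protease that restrains necroptosis, went from 6.34 to 10.1 and from 7.43 to 12.4 FPKM. Fadd, the adaptor that brings caspase-8 in, fell from 3.20 to 0.875 and from 2.90 to 1.03 FPKM. Ripk3 was the remaining gene of the 4 that rose. By the authors' q the death-promoting Zbp1, Ripk3 and Mlkl thus rose in both genotypes. The restraining Casp8 rose as well, so direction did not set it apart from them, while its adaptor gene Fadd fell.

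Mb21d1, the DNA sensor, fell. Mb21d1 (ENSMUSG00000032344, chromosome 9, 78430526 to 78443237 in the annotation, minus strand) went from 5.73 to 1.69 FPKM in p53KO cells (log2 fold change -1.77, SE 0.31, q = 0.000169 in the authors' deposited table) and from 4.64 to 1.83 in p53CryKO cells (-1.34, SE 0.28, q = 0.000161). That is a 3.40-fold and a 2.54-fold fall. The balance of RIG-I to cGAS transcripts moved accordingly: Ddx58 stood at 0.494 of the Mb21d1 level per length in untreated p53KO cells and at 4.35-fold that level after UV, and at 1.95-fold and 9.97-fold in p53CryKO cells. This ratio within a group does not depend on the scale.

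**Figure D3:**
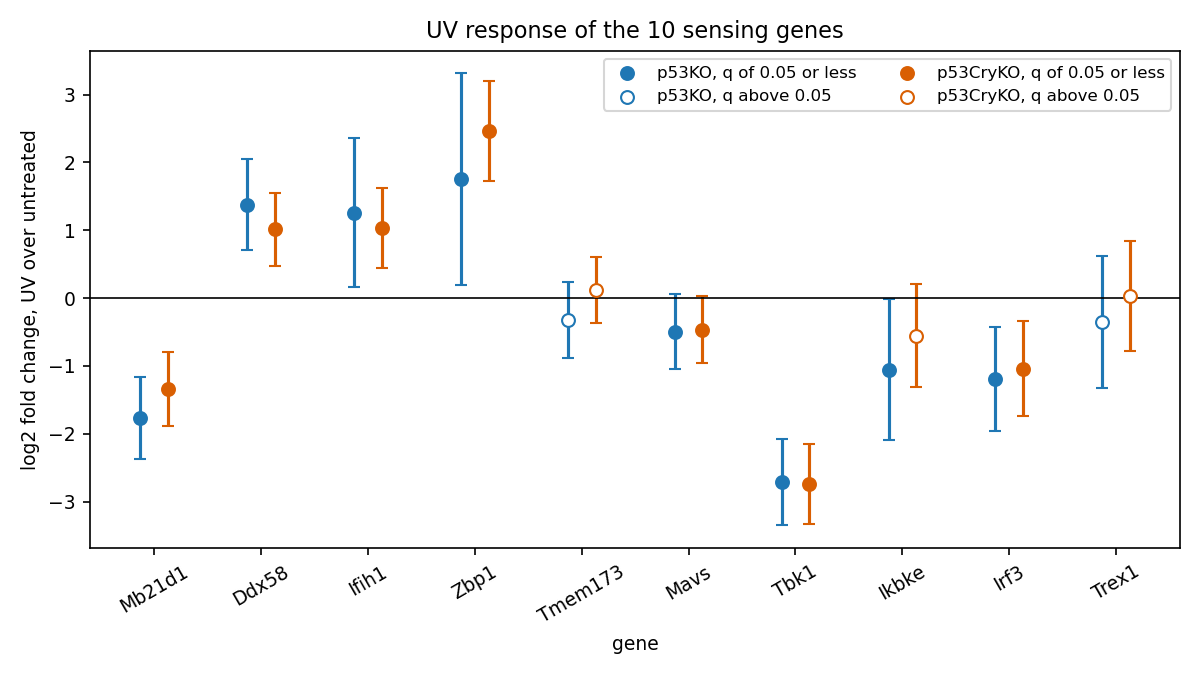
Log2 fold change of UV over untreated cells (y axis) of the 10 genes (x axis) in p53KO and p53CryKO cells; bars are ± 1.96 implied SE, and filled points passed the authors' test. Ddx58, Ifih1 and Zbp1 lie above 0 and Mb21d1, Tbk1 and Irf3 below 0 with their bars in both genotypes on the authors' scaling; on the coding scale Ddx58 in p53CryKO cells is at -0.01.

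The nuclease that opposes cGAS did not pass. Trex1 (ENSMUSG00000049734, chromosome 9, 109057933 to 109059734, minus strand) stood at 11.6 and 9.05 FPKM in p53KO cells before and after UV (log2 fold change -0.35, SE 0.50, q = 0.415 in the authors' deposited table). In p53CryKO cells it stood at 9.93 and 10.2 FPKM (0.04, SE 0.41, q = 0.922). On the coding scale Trex1 was called lower in both genotypes, at -1.36 in p53KO and -0.98 in p53CryKO cells. Its 1147 exonic bases lie wholly within exons of Atrip on the same strand, so fragments of Trex1 and Atrip, a partner of the checkpoint kinase ATR, cannot be told apart here. Atrip itself had log2 fold changes of -0.27 and 0.05, close to those of Trex1.

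The adaptors had small changes on the authors' scale. Mavs (ENSMUSG00000037523, chromosome 2, 131234063 to 131248025, plus strand), which relays the signal of both helicases, went from 13.4 to 9.55 FPKM in p53KO cells (log2 fold change -0.49, SE 0.28, q = 0.0252 in the authors' deposited table) and from 14.5 to 10.5 in p53CryKO cells (-0.46, SE 0.25, q = 0.0162). The implied 95% intervals reached 0.06 and 0.03, and with the implied SE and a normal distribution neither fall passed. Tmem173 (ENSMUSG00000024349, chromosome 18, 35733679 to 35740554, minus strand), which encodes STING, stood at 13.0 and 10.4 FPKM in p53KO cells (-0.33, SE 0.29, q = 0.175 in the authors' deposited table). In p53CryKO cells it stood at 20.0 and 21.8 FPKM (0.13, SE 0.25, q = 0.557). On the fragment and coding scales Tmem173 was called lower in both genotypes. Its values there were -1.11 and -1.33 in p53KO and -0.67 and -0.90 in p53CryKO cells. Both adaptors stayed among the most abundant of the 10 transcripts in all 4 groups. Tmem173 was at 0.970 and 1.09 times the Mavs level in p53KO cells before and after UV, and at 1.38 and 2.08 times in p53CryKO cells.

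Tbk1 fell the furthest of the 10 genes. Tbk1 (ENSMUSG00000020115, chromosome 10, 121546455 to 121586787, minus strand), the kinase on which both arms converge, went from 7.39 to 1.13 FPKM in p53KO cells (log2 fold change -2.71, SE 0.32, q = 0.000169 in the authors' deposited table) and from 7.24 to 1.08 in p53CryKO cells (-2.74, SE 0.30, q = 0.000161). The falls were 6.55-fold and 6.70-fold, with levels alike in both genotypes before and after UV. Of tested genes 2.58% and 2.41% of those with an FPKM of 1 or more had a lower fold change. Ikbke (ENSMUSG00000042349, chromosome 1, 131254343 to 131279606, minus strand), its inducible relative, went from 1.37 to 0.657 FPKM in p53KO cells (-1.06, SE 0.53, q = 0.00606 in the authors' deposited table). In p53CryKO cells Ikbke stood at 1.81 and 1.23 FPKM and did not pass (-0.55, SE 0.39, q = 0.0667). The p53KO fall of Ikbke missed the threshold with the implied SE and a normal distribution. On the fragment and coding scales Ikbke was called lower in both genotypes. Its values there were -1.84 and -2.06 in p53KO and -1.34 and -1.57 in p53CryKO cells. Tbk1 stood 5.41-fold above Ikbke per length in untreated and 1.72-fold above it in UV-treated p53KO cells, and at 4.00 and 0.876 times its level in p53CryKO cells.

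Irf3 fell in both genotypes. Irf3 (ENSMUSG00000003184, chromosome 7, 44997648 to 45002848, plus strand), the factor that TBK1 phosphorylates, went from 25.2 to 11.1 FPKM in p53KO cells (log2 fold change -1.19, SE 0.39, q = 0.000169 in the authors' deposited table) and from 16.9 to 8.24 in p53CryKO cells (-1.04, SE 0.36, q = 0.000161). It ranked 1 of the 10 in p53KO cells before and after UV, and in p53CryKO cells it ranked 2 before and 6 after UV. Bcl2l12, which starts beside Irf3 on the opposite strand and shares 88 of its 3442 exonic bases, fell too, from 10.6 to 4.57 and from 7.28 to 3.66 FPKM. The library kit marks strand per the labels' protocols, but the sources used here do not say whether counting used strand.

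The order of the 10 levels changed with UV and with genotype. UV moved Zbp1 from rank 10 to 8 in p53KO cells and from 8 to 3 in p53CryKO cells, and Tbk1 from rank 5 to 7 and from 6 to 10. In untreated p53KO cells the order ran Irf3, Mavs, Tmem173, Trex1, Tbk1, Mb21d1, Ddx58, Ikbke, Ifih1 and Zbp1. In UV-treated p53CryKO cells it ran Tmem173, Ddx58, Zbp1, Mavs, Trex1, Irf3, Ifih1, Mb21d1, Ikbke and Tbk1. These 2 orders differ in both UV and genotype. With 1 pooled value a group, the spread between neighbours in these orders is unknown.

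Whether cryptochrome loss changed the UV response was asked by subtracting the p53KO from the p53CryKO log2 fold change. None of the 10 genes differed, by the normal test of the difference with Benjamini-Hochberg adjustment over 12300 genes, of which 0.179% differed, 0.0732% with the larger value in p53CryKO and 0.106% in p53KO cells. None of the 10 reached an unadjusted p of 0.05, here or with standard errors taken from the authors' p-values, which called 82 of the 12300. For Tbk1 the difference (p53CryKO minus p53KO) was -0.03 with a 95% interval of -0.90 to 0.83, and for Mavs 0.03 with -0.71 to 0.77. For Tmem173 it was 0.45 (-0.29 to 1.19), for Mb21d1 0.42 (-0.39 to 1.24) and for Ddx58 -0.36 (-1.22 to 0.50). Zbp1 had the widest interval, 0.71 with -1.01 to 2.43. On simulated data for this comparison over 12300 genes, 1.5% of differences of 1 on the log2 scale, 58.5% of 2 and 79.5% of 3 were recovered. The simulated noise was drawn from the same implied SE, which is wide, so these shares hold for that SE only. With it, differences of the size seen here were not detectable.

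The 3 sensors that rose with UV were also the members whose levels set the genotypes apart. These levels come from tables that the authors normalized separately, so no test was made; the median log2 ratio of p53CryKO to p53KO levels over expressed genes was -0.07 in untreated and -0.07 in UV-treated cells. In untreated cells Zbp1 was 7.39-fold, Ifih1 4.85-fold and Ddx58 3.19-fold higher in p53CryKO than in p53KO cells. The other 7 members lay within 2-fold, Tbk1 at 0.979 and Mavs at 1.08 times the p53KO level. Of 11537 genes with an FPKM of 1 or more in either untreated group, 5.43% were at least 2-fold higher in p53CryKO and 7.38% at least 2-fold higher in p53KO cells. After UV the ratios were 12.1 for Zbp1, 4.16 for Ifih1, 2.49 for Ddx58 and 2.09 for Tmem173, where 7.8% of genes were at least 2-fold higher in p53CryKO and 9.69% in p53KO cells. With a pseudocount of 1, which shrinks low genes, the untreated log2 ratios were 1.27, 1.03 and 1.39 for Zbp1, Ifih1 and Ddx58. Markers of cell type moved with the genotype as well. Of the 10 fibroblast markers 8 were lower in untreated p53CryKO than p53KO cells, among them Pdgfra (3.26 against 17.7 FPKM), Thy1 (37.8 against 109) and Col1a2 (241 against 548). Dcn (26.5 against 17.1) and Vim (2256 against 1238) were higher there. Cdh1 stood at 0.0247 and 0.0341 FPKM in p53KO but at 3.33 and 2.32 in p53CryKO cells. Krt14 stood at 0.0287 and 0.0367 against 4.95 and 8.97, and the 4 epithelial markers summed to 0.114 and 0.178 against 8.29 and 11.4 FPKM, with Cldn4 at 0 and Epcam at 0.0139 and 0.0681 in p53CryKO cells. The part of either marker list in the level differences was not tested.

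**Figure D4:**
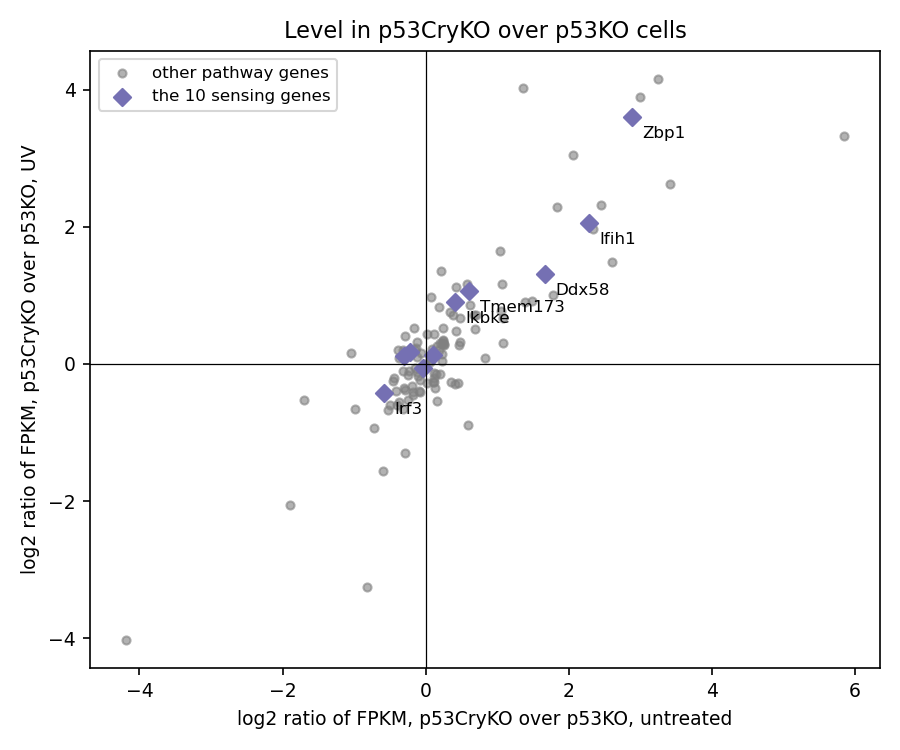
Log2 ratio of FPKM in p53CryKO over p53KO cells, untreated (x axis) against UV-treated (y axis); diamonds are the 10 sensing genes and grey points the other genes of the pathway lists with a level above 0 in all groups. Zbp1 (2.89 and 3.60), Ifih1 (2.28 and 2.06) and Ddx58 (1.68 and 1.31) lie to the upper right, and Tbk1 (-0.03 and -0.06) lies near the origin.

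The wider pathway was read in 8 lists with 110 further genes. In p53KO cells 38 of 105 tested rose and 31 fell, and in p53CryKO cells 37 of 110 rose and 30 fell, beside 23.9% and 25.1% of all tested genes that rose and 26.9% and 27.2% that fell; no list was tested against other genes. Among the 22 sensors, the 4 above included, 13 of 21 tested rose and 5 fell in p53KO cells (median 1.01). The list also counts the DNA break repair genes Prkdc, Xrcc5, Xrcc6, Mre11a and Rad50, all of which rose in both genotypes. The p53KO median is the value of Xrcc5. In p53CryKO cells 11 of 22 rose and 3 fell (0.83), although with the implied SE 9 and 10 were called higher, and on the coding scale 0 and 1. Ifi204, a DNA-binding protein of the interferon-inducible p200 family, went from 5.23 to 13.0 and from 6.17 to 16.6 FPKM, and Xrcc6, the Ku70 subunit that also binds broken DNA ends, from 30.5 to 66.0 and from 34.6 to 76.4. The helicase gene Dhx33 fell from 16.8 to 4.86 and from 11.9 to 3.20 FPKM. The sensors were the list with the highest median in p53KO cells on the authors' scale.

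Downstream components were read next. Of 13 kinases and transcription factors, 3 rose and 7 fell in p53KO cells (median -1.06) and 3 rose and 7 fell in p53CryKO cells (-0.64), with 1 and 1 called higher with the implied SE and none on the coding scale. Irf7, the interferon-induced relative of Irf3, rose the most, from 0.888 to 9.10 and from 3.07 to 18.3 FPKM. Its log2 fold change in p53KO cells was 3.36 with an SE of 1.82, and the implied 95% interval ran from -0.22 to 6.93. In p53CryKO cells it was 2.58 with an SE of 0.79. The acetyltransferase genes Crebbp and Ep300, whose products are coactivators of IRF3, fell by 2.11 and 1.67 on the log2 scale in p53KO cells and by 1.78 and 1.86 in p53CryKO cells. Of 14 adaptors and kinase scaffolds, 2 rose and 5 fell in p53KO cells (median -0.42) and 1 rose and 7 fell in p53CryKO cells (-0.47). Ticam1, which encodes the TLR3 adaptor TRIF, fell from 5.92 to 1.15 and from 3.90 to 0.389 FPKM. The ubiquitin ligase gene Traf6 fell from 2.60 to 0.870 and from 3.31 to 0.725 FPKM, and Tradd fell from 15.8 to 3.63 and from 14.1 to 5.25.

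Regulators and traffic factors went both ways. Of 19 sensor cofactors and ubiquitin enzymes, 5 rose and 7 fell in p53KO cells (median -0.19) and 3 rose and 7 fell in p53CryKO cells (-0.28). Usp18, the protease that removes ISG15 and damps interferon signalling, went from 1.98 to 15.5 and from 4.20 to 24.7 FPKM. Rnf26, a ubiquitin ligase that acts on STING, fell by 2.22 and 2.51 on the log2 scale, and Tnfaip3, an inhibitor of NF-kB signalling, by 1.08 and 2.56. Of 12 and 13 tested nucleases and brakes, 2 rose and 3 fell in p53KO cells and 2 rose and 2 fell in p53CryKO cells (medians 0.04 and 0.18). Rnaseh2b, a subunit of the enzyme that removes ribonucleotides from DNA, went from 13.5 to 29.9 and from 28.4 to 66.8 FPKM. Lmnb1, the lamina protein whose loss exposes nuclear DNA, fell from 38.5 to 4.12 and from 44.5 to 5.11, and Fen1 fell by 1.29 and 1.27 on the log2 scale. On the coding scale 1 cofactor gene was called higher in each genotype, against 3 and 3 with the implied SE alone. In the STING traffic and cGAMP transport list of 13, 3 rose and 6 fell in p53KO cells and 3 rose and 5 fell in p53CryKO cells (medians -0.17 and -0.16). Rhbdf2, which encodes the STING trafficking factor iRhom2, fell by 2.83 and 2.80, and the volume-regulated channel subunits Lrrc8a and Lrrc8c, which can carry cGAMP, by 2.12 and 2.81 and by 1.19 and 1.38. On that scale no adaptor, nuclease or traffic gene was called higher in either genotype, against 1 adaptor, 1 nuclease and 2 traffic genes in p53KO and 0, 1 and 2 in p53CryKO cells with the implied SE alone.

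**Figure D5:**
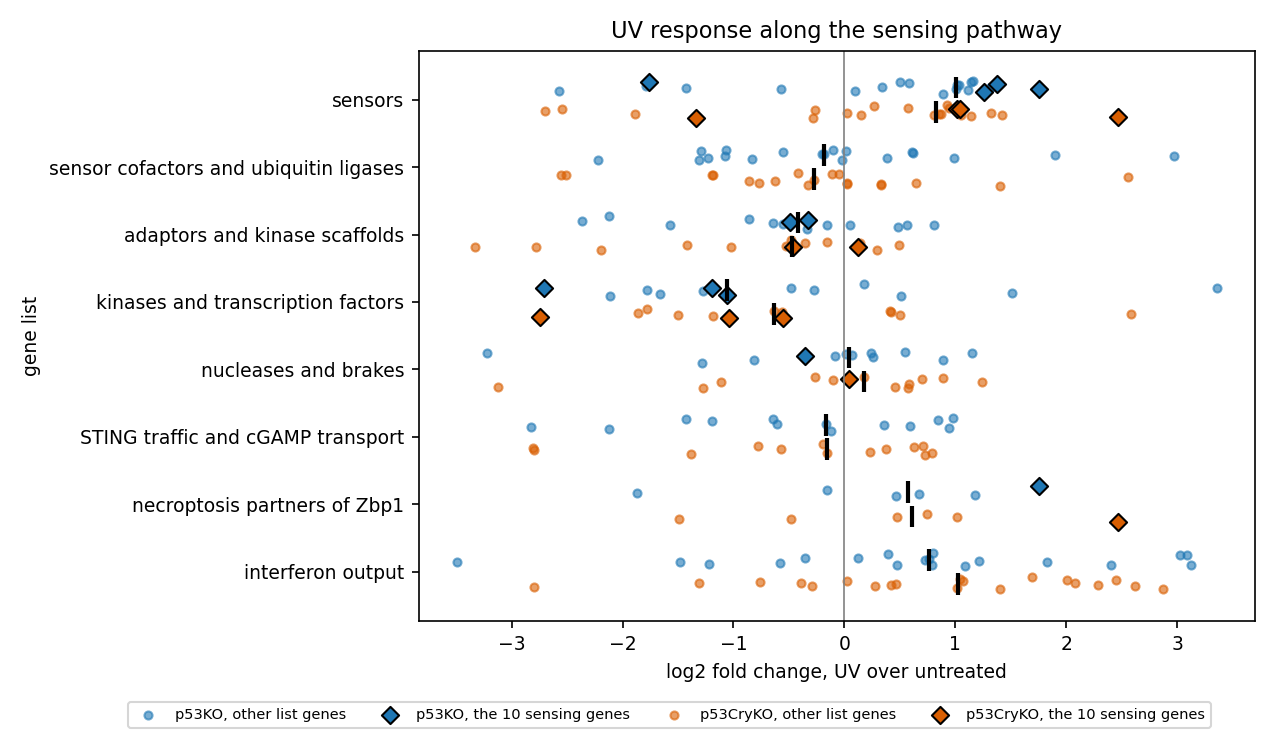
Log2 fold change of UV over untreated cells (x axis) of each tested gene in the 8 pathway lists (y axis) in p53KO and p53CryKO cells on the authors' scaling; points are genes, diamonds the 10 sensing genes, and black bars list medians. The sensor medians are 1.01 and 0.83, and those of kinases and transcription factors -1.06 and -0.64; the coding scale lowers all values in a genotype by 1.01 or 1.02 and leaves the order as drawn.

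The interferon genes at the end of the pathway were read last. Ifnb1 was listed at 0 in both p53KO groups and in untreated p53CryKO cells, and at 0.415 FPKM in UV-treated p53CryKO cells. Ifna4 was likewise listed at 0 in those 3 groups and at 0.267 FPKM in UV-treated p53CryKO cells. These levels are about 14.0 and 5.89 steps, and how they divide over the replicates is unknown. Of the interferon output list, 10 of 19 tested rose and 2 fell in p53KO cells (median 0.76). In p53CryKO cells 14 of 22 rose and 2 fell (1.03), and with the implied SE 8 and 10 were called higher and 2 and 2 lower. On the coding scale 4 were called higher and 4 lower in p53KO and 6 and 6 in p53CryKO cells. Bst2, which encodes the viral tether BST2, went from 62.3 to 530 and from 162 to 996 FPKM, and Mx2, an interferon-induced GTPase, from 0.0836 to 0.681 and from 0.235 to 1.28. Irf1 fell by 3.49 and 2.80 on the log2 scale. In untreated cells 8 of 16 expressed genes of the list were at least 2-fold higher in p53CryKO cells and 0 in p53KO cells. Over all expressed genes the shares were 5.43% and 7.38%. The 8 genes were Irf9, Isg15, Ifit1, Ifit3, Cxcl10, Ccl5, Oas1a and Bst2, with Isg15 at 5.62 FPKM in p53KO and 30.6 in p53CryKO cells. They share with Zbp1, Ifih1 and Ddx58 a higher level before any UV, beside the marker differences given above.

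The motif of the Ddx58 and Ifih1 windows was more frequent in this list: 9 of 18 interferon output genes with a window held it, in each case before the annotated start. These stretches show how the letters recur in genes of the interferon response.
Isg15, chr4:156200871-156200900: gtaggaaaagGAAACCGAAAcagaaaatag
Oas1a, chr5:120907520-120907549: tcgggaaatgGAAACTGAAAatctacttcc
Bst2, chr8:71537577-71537606: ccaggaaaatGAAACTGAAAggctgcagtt
Ifit3, chr19:34583397-34583426, opposite strand: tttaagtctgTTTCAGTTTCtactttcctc
Ifna4, chr4:88841688-88841717: gtgaagtaaaGAAAGTGAAAagagaattgg
In Isg15, Oas1a and Bst2 further matches overlap the one shown. Among genes tested in both genotypes, 4.64% of those that rose in both, 2.93% of those that fell in both and 3.56% of all held the motif. Of genes at least 2-fold higher in untreated p53CryKO cells 8.53% held it, and of those at least 2-fold higher in untreated p53KO cells 4.91%. For the E-box the shares were 11.7%, 12.0% and 11.6%, and 9.30% and 11.5% for the genotype classes.

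Members of like span moved in opposite directions. Over protein-coding genes with an FPKM of 1 or more, longer genes had lower fold changes after UV: over 5 classes of equal size by span the median ran from 0.41 in the shortest to -0.37 in the longest in p53KO cells, and from 0.44 to -0.39 in p53CryKO cells, with every class median below 0 on the coding scale. Ddx58, Ifih1 and Tbk1, with spans of 36056, 50458 and 40333 bases, share class 4, whose medians were -0.30 and -0.27, yet on the authors' scale the helicases rose and Tbk1 fell. Irf3, which fell, spans 5201 bases and belongs to the shortest class with Tmem173 and Trex1.

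Likeness was read as the distance of log2 FPKM over the 4 groups, each gene centred on its own mean. It was searched among 9474 genes with an FPKM of 1 or more in all 4 groups. The genes most like Tbk1 were Skp2 (distance 0.03), Wibg (0.07) and Uspl1 (0.08). Skp2 went from 15.8 to 2.41 and from 15.9 to 2.33 FPKM. Those most like Zbp1 were Ptgis (0.72), Clu (0.78) and Msln (0.87), with Clu going from 1.31 to 3.34 and from 5.58 to 26.3 FPKM. Among the genes searched, the pattern of Tbk1 thus had near neighbours and that of Zbp1 had none as close. Zbp1 itself, at 0.282 and 0.952 FPKM in p53KO cells, is below the filter, so genes as low as it were not searched.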

How the data were processed

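Poly(A) RNA of the 8 samples was sequenced as paired ends from TruSeq libraries, per the labels' protocols. The submitters' processing notes list Cuffdiff, Cufflinks, STAR 2.5.2, Trimmomatic 0.35 and FastQC 0.11.5, with GRCm38 as the build; no source used here states their options. The authors deposited 1 pooled FPKM per gene and group, a signed Cuffdiff score and a p-value and q-value, per the file headers. Each genotype has its own table, and a further table repeating shared genes was not used.

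The log2 fold change was computed from FPKM without a pseudocount, and its SE as that value over the test score. Normal quantiles of the authors' p-values exceeded the score by a median factor of 1.44 in both tables, so the SE is wide. The smallest p was 5e-05, shared by 4685 and 4926 genes. The difference between genotypes used a two-sided normal test, checked on simulated data. Replicates are called biological without a named source, so the authors' p-values speak at most for these cultures. How Cuffdiff modelled the spread is not stated in the sources used here.

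The 10 genes and the lists were chosen with earlier results of these data known. List genes named were up to 3 per list, called in both genotypes in 1 direction with the largest mean change, and with an FPKM of 1 or more in a group; other genes named were chosen after their values were seen. Gene spans were read from a GRCm38 annotation (GENCODE M21) that holds 96.0% of the gene IDs. Of 27 marker genes 26 were found. Python 3.11.15, numpy 2.4.6, pandas 2.3.3, scipy 1.17.1 and matplotlib 3.10.9 were used. Other thresholds, filters, scalings, errors and a pseudocount of 1 were tried.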

Additional observations from a re-analysis of the deposited data

Results flagged for a closer look

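None of the 10 sensing genes differed between the genotypes in its UV response, but 2 of the 110 pathway genes with a test of the difference did. They passed a threshold of 0.05 after Benjamini-Hochberg adjustment over 12300 genes, with a normal test that is approximate for so few replicates. They passed it as well with standard errors from the authors' p-values, without the FPKM filter, with an FPKM of 5 or more and centred on the median. The setting with a pseudocount of 1 kept the q of the main test, so it could not change these calls. Zcchc3, which encodes a DNA-binding cofactor of cGAS, differed by -2.53 (p53CryKO minus p53KO log2 fold change, SE 0.57, 95% interval -3.64 to -1.41). It went from 0.166 to 0.621 FPKM in p53KO cells and from 9.59 to 6.21 in p53CryKO cells, so its level already differed 57.6-fold before UV. Ifit3, an interferon-induced antiviral gene, differed by 2.66 (SE 0.56, 95% interval 1.56 to 3.77). It stood at 0.767 and 0.514 FPKM in p53KO cells and went from 1.97 to 8.34 in p53CryKO cells.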

How the results depend on the processing

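With the implied SE and a normal distribution in place of the authors' p-values, the members that rose in p53KO cells were 1 rather than 3, and those that fell were 3 rather than 5; centred on the median they were 1 and 3. Among genes with an FPKM of 1 or more, and of 5 or more, 1 member rose in p53KO cells, because Ifih1 and Zbp1 are below those levels there. The scaled counts use that same test, so scale and test changed together. At equal total fragments 0 members were called higher in p53KO and 1 in p53CryKO cells, and at equal coding FPKM 0 and 1, with 7 lower in p53CryKO cells against 4 by the authors' q and 3 by the implied SE alone. On the coding scale the values of Ddx58, Tmem173 and Trex1 in p53CryKO cells changed sign, to -0.0074, -0.90 and -0.98. At equal total fragments that of Tmem173 did, to -0.67. Tmem173 and Trex1 were not called on the authors' scale, and Ddx58 was not called on the coding scale. Other counts of members kept within 1.5 times under q of 0.01 and a minimum change of 1. The count that differed between genotypes stayed at 0 under all 5 settings tried. A pseudocount of 1 changed the fold changes but kept the q-values, so it could not change any of these counts. A Bonferroni threshold was not run, since the smallest p of the authors' test gives 0.793 after it. No paired analysis was possible because values per replicate are not in the tables used here, and no replicate could be left out for the same reason. Library totals are unknown, and the low p53KO levels of Ifih1 and Zbp1 limit their precision.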

Other observations

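Outside the naming rule, and chosen after its values were seen, Enpp1 had the largest gap toward p53KO cells in untreated level among the pathway lists. Enpp1 encodes the ectoenzyme that hydrolyses cGAMP outside cells. It stood at 8.21 and 8.30 FPKM in p53KO cells before and after UV and at 0.452 and 0.510 in p53CryKO cells, and its UV response passed in neither genotype (log2 fold change 0.02 and 0.18). The interferon regulatory factor gene Irf5 lay in the same direction, at 19.1 and 13.7 FPKM against 5.12 and 3.29. The subunits of the type I interferon receptor parted after UV in both genotypes. In p53KO cells Ifnar1 fell from 11.3 to 4.06 FPKM, and in p53CryKO cells from 7.47 to 3.01. Ifnar2 rose on the authors' scale, from 21.4 to 49.6 and from 20.2 to 42.4 FPKM.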
